A study of Mus musculus with 3 samples.

Results

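Accessible regions beside the ends of genes were examined in sorted mouse cortical projection neurons, for those with a peak in both libraries of callosal projection neurons (CPN) and none in the library of corticospinal motor neurons (CSMN). CPN send axons to the opposite hemisphere and CSMN send axons to the spinal cord. The assay was ATAC-seq, which uses a transposase to insert adapters into open chromatin, on 50000 cells per library. The peaks of the 3 deposited lists were merged wherever they overlapped by at least 1 bp, which gave 204313 regions. A region was a member when both CPN lists and not the CSMN list had a peak in it, and when its summit lay within 1 kb of either end of a RefSeq protein-coding gene. The summit was that of the peak with the highest fold enrichment. There were 1653 such regions, and they are called gene-end CPN-only regions here. They belong to the mm10 build of the mouse genome.

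The CPN group held 2 libraries, CPN 1 and CPN 2, and the CSMN group held 1. All came from mouse brain and were sorted by FACS, and no treatment or genotype is listed for any of them. The sources used here do not give age, strain, sex, the markers used for sorting or whether animals were pooled. The CPN 1 list held 134018 peaks with a median fold of 3.82, the CPN 2 list 158779 with a median of 3.68 and the CSMN list 98067 with a median of 2.86. Read totals were not given either, so the depth is unknown. With 1 CSMN library there is no replicate check on that side, and no p-value between the cell types is given. The peaks chose the regions, so their folds are a description. A missing CSMN peak says only that no peak passed the threshold of that list. Fewer cells with an open site and less opening per cell cannot be told apart in such bulk libraries.

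Of the defining markers examined, CPN markers had a region at a gene end at 3 of 4 genes in CPN 1, CPN 2 and CSMN alike. CSMN markers had one at 4 of 4 genes in each of the libraries. Cux1, a transcription factor of upper-layer neurons, had 9.89-fold enrichment in CPN 1, 9.68-fold in CPN 2 and 6.71-fold in CSMN. Bcl11b, a transcription factor of subcerebral neurons, had 9.35, 8.47 and 7.16 in the same libraries. Lhx2, a CPN marker, had 2 regions in each CPN library and 1 in CSMN, and no CSMN marker had a CPN-only region. Most of these markers thus had a region in every library. Among 11 markers of other cells, 7 had a region in CPN 1, 7 in CPN 2 and 5 in CSMN. Aqp4 of astrocytes, Sox10 of oligodendrocytes and Csf1r of microglia had none in any list, while the endothelial genes Cldn5 and Pecam1 and the oligodendrocyte gene Olig1 had one in each. Olig2 and the interneuron gene Gad1 also had regions in every list. Gfap of astrocytes had a region in CPN 2 only, at 2.77-fold, and Cx3cr1 of microglia in CPN 1 only, at 2.43-fold. Gad2 of interneurons had regions in CPN 1 (up to 3.03-fold) and CPN 2 (up to 3.45-fold) and none in CSMN. The strongest Olig1 peak reached 9.31-fold in CPN 1, 10.2-fold in CPN 2 and 5.74-fold in CSMN. The part of other cells in the CPN-only regions was not tested.

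A gene start carries the core promoter, where RNA polymerase is loaded, and the promoters of many widely expressed genes lie in CpG islands that are open in most cell types. Promoters with few CpG dinucleotides are more often used in selected cell types. The 3′ end is where transcripts are cleaved and where transcription stops, and enhancers can lie at either side of a gene or within it.

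The sequences under some of these regions are shown because the CPN-only regions over promoters ranged from CpG-rich to CpG-poor. RefSeq lists a window of 300 bases for a promoter, of which 250 lie before the start and 50 after it (GRCm38.p6). Each is printed 5′ to 3′ on the strand of its gene, in lower case with every CpG dinucleotide in capitals. The first 3 belonged to the regions with the highest folds among those whose summit lay in the window of their own gene. C1s1, which encodes a complement protease, had the lowest CpG content of the 8 highest. Neurod2 and C1qb were chosen from the gene lists after their values were seen.
Zfp27: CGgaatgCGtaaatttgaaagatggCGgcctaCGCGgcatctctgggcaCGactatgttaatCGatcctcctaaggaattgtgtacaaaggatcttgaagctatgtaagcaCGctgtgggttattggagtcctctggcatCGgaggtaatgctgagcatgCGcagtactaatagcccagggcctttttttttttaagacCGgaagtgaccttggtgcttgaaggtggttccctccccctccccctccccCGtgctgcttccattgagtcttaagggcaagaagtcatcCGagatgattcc
Aunip: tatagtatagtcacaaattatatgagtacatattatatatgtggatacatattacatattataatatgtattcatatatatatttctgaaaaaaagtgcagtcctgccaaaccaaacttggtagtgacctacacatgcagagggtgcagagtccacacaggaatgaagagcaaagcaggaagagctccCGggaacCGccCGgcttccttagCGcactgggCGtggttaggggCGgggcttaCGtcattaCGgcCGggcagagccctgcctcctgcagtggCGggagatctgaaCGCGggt
Bbs1: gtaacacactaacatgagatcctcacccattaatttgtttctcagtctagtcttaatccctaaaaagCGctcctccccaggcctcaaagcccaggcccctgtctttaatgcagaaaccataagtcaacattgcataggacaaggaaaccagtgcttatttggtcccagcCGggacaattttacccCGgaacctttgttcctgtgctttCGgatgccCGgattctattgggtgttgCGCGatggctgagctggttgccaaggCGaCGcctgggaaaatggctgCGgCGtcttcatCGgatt
C1s1: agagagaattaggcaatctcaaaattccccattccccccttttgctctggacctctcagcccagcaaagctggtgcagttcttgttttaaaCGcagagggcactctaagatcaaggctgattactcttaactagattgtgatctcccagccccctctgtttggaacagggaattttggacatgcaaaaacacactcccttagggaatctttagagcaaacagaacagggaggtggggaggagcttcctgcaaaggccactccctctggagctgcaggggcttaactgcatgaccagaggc
Neurod2: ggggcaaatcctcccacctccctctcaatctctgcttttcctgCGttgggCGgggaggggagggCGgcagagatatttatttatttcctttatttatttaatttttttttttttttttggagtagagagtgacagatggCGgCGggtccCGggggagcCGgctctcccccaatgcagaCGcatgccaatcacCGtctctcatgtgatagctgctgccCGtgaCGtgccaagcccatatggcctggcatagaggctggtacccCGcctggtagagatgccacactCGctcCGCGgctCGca
C1qb: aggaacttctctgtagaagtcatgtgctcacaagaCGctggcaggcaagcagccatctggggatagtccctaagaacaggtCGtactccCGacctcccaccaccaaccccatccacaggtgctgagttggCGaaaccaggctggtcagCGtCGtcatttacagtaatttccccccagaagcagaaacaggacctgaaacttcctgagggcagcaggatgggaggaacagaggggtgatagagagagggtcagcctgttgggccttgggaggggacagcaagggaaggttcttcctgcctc
The Zfp27 window (chr7:29906055-29906354, minus strand) held 13 CpG dinucleotides, which is 0.676 of the number expected from its C and G content. The Aunip window (chr4:134510749-134511048, plus strand) held 12, at a ratio of 0.723. The Bbs1 window (chr19:4906578-4906877, minus strand) also held 12, at 0.636. Zfp27 encodes a zinc finger protein, Aunip a protein bound by Aurora kinase A, and Bbs1 a subunit of the BBSome, a complex that moves cargo in cilia. The C1s1 window (chr6:124542310-124542609, minus strand) held 1 CpG, at a ratio of 0.0534. The Neurod2 window (chr11:98329596-98329895, minus strand) held 16, at 0.697, and the C1qb window (chr4:136886151-136886450, minus strand) held 6, at 0.253. Neurod2 encodes a transcription factor of excitatory neurons and C1qb a chain of complement C1q, which microglia make in the brain. The region over the Bbs1 window had 7.86-fold enrichment in CPN 1 and 8.40-fold in CPN 2, and that over the C1s1 window had 6.36 and 8.47.

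CPN-only regions made up a smaller share of regions at gene ends than of regions elsewhere. At gene ends they were 1653 of 19264 regions, or 8.58% (Wilson 95% interval 8.19 to 8.98). Over all merged regions they were 19.4%, and over regions more than 1 kb from gene ends they were 20.6%. CSMN-only regions, which had a peak in that list alone, were 870 of the gene-end regions, or 4.52%, beside 11.8% of all merged regions. Regions of all 3 libraries numbered 13209 at gene ends. Members were 11.8% of the gene-end regions on chromosome 19 and 11.2% on chromosome 11, the highest shares of any chromosome, and 4.62% on chromosome X, the lowest apart from chromosome Y, where none of 9 was a member. Wilson intervals cover counting error only, and neighbouring regions share their library.

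The side of the gene on which a region lay was not used to choose it, and it separated the regions. RefSeq promoter windows gave the strand of 17491 of the 21896 protein-coding genes, so the side was known for 1270 of the 1653 members. The nearest end was the gene start for 644 of them, or 50.7% (interval 48.0 to 53.5), and the 3′ end for 626. Among gene-end regions of all 3 libraries the nearest end was the start for 91.4%. Among gene-end CSMN-only regions it was the start for 50.3%. The CPN-only and the CSMN-only regions were thus spread over both ends, whereas the regions of all 3 libraries lay mostly at starts.

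Of the regions found in both CPN lists, 6.31% at gene starts lacked a CSMN peak (644 of 10206, interval 5.85 to 6.80). At 3′ ends the share was 41.1% (626 of 1523, interval 38.7 to 43.6). It was 45.8% inside genes and 41.1% outside them, more than 1 kb from their ends. The share at 3′ ends was therefore near that of sites away from gene ends, and the share at starts was far below it. The same share was taken with a CPN library as the odd one. Of regions in CPN 2 and CSMN, 0.963% at starts and 8.38% at 3′ ends lacked a CPN 1 peak. Of regions in CPN 1 and CSMN, 1.03% at starts and 7.05% at 3′ ends lacked a CPN 2 peak. In all 3 cases starts had the lower share. The order between the libraries cannot be read as a difference between the cell types. The CSMN list is the shortest and has the lowest folds, and a pair that includes CSMN holds sites strong enough for that list. With lists of equal length, an alternative chosen after the data were seen for the CPN libraries, 3.69% at starts and 29.4% at 3′ ends lacked CSMN, 0.804% and 4.14% lacked CPN 1, and 1.26% and 6.89% lacked CPN 2. Equal length leaves the lower folds of the CSMN list as they were, and their part was not tested.

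The share also changed with distance from the start. In the 200 bp before the start, 3.29% of the regions of both CPN lists lacked a CSMN peak (131 of 3983), and in the 200 bp after it 4.51% did. The share was 10.4% at 200 to 400 bp before the start, 19.6% at 400 to 600 bp, 28.9% at 600 to 800 bp and 33.1% at 800 to 1000 bp. On the gene's side it rose more slowly with distance, to 6.70% at 200 to 400 bp after the start and 18.8% at 800 to 1000 bp. Around 3′ ends every bin of 200 bp lay between 36.3% and 45.8%, with no dip at the end itself.

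**Figure D1:**
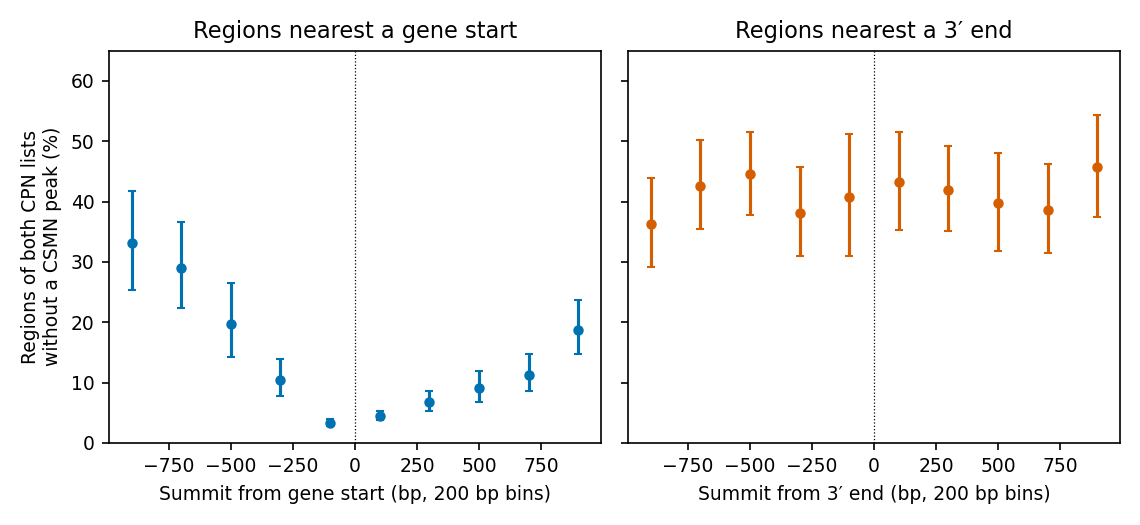
Share of the regions in both CPN lists that had no CSMN peak (vertical axis, %) by the distance of the summit from the gene start (left) or from the 3′ end (right) in 200 bp bins, where negative distances lie upstream along the gene's strand. Bars are Wilson 95% intervals for counting error; the share falls to 3.29% just before the start and stays between 36.3% and 45.8% around the 3′ end.

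Absence from the CSMN list went with the strength of the CPN peaks at every kind of site. Folds here are the authors' enrichment values, and regions were set in bins by the lower fold of the CPN pair. At starts 58.0% of regions with a lower fold under 2.5 had no CSMN peak, 16% of those from 4 to 5, and 0.269% of those from 8 to 12. At 3′ ends the shares in the same bins were 79.6%, 39.8% and 3.03%. Within a bin the start therefore still had the lower share. From 3 to 3.5 it was 32.8% at starts (interval 28.1 to 37.8), 55.3% at 3′ ends (48.8 to 61.6), 63.8% inside genes and 61.6% outside them. No region with a lower fold of 12 or more lacked a CSMN peak at starts (0 of 5283, upper limit of the interval 0.0727%). The peaks of the CSMN list were also weaker as a whole than those of the CPN lists. At 925 gene-end regions of all 3 libraries with a lower CPN fold of 2.61 to 3.83, the middle range of the members, the CSMN fold had a median of 2.66 and the −log10 q a median of 4.94. The part of the weaker CSMN list in the absence of CSMN peaks was not tested. With the 3 lists held at the length of the shortest, 898 of the 1653 members remained.

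**Figure D2:**
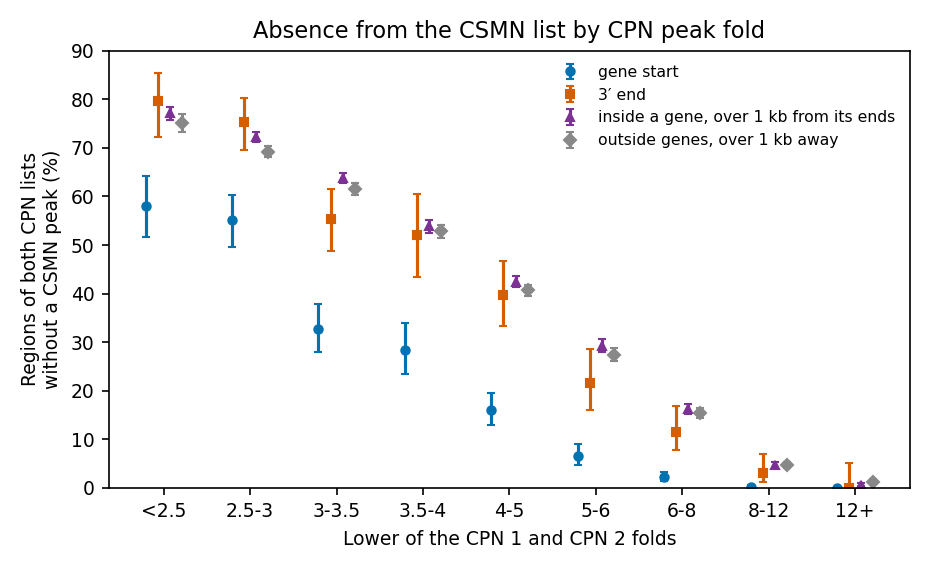
Share of the regions in both CPN lists that had no CSMN peak (vertical axis, %) by the lower of the CPN 1 and CPN 2 folds (horizontal axis, bins), for 4 kinds of site. Bars are Wilson 95% intervals; the shares fall with fold at every kind of site, and gene starts are lowest in each bin up to 8 to 12, with 32.8% against 55.3% at 3′ ends for folds of 3 to 3.5.

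Most members were weak, narrow peaks that recurred at the same place in the CPN libraries. Their fold ranged from 1.60 to 13.2 in CPN 1, with a median of 3.24, and from 1.72 to 13.6 in CPN 2, with a median of 3.40. The median −log10 q was 7.64 in CPN 1 and 7.07 in CPN 2, and the median width was 241 bp and 194 bp. Gene-end regions of all 3 libraries were stronger, with median folds of 12.4 (CPN 1), 12.6 (CPN 2) and 7.33 (CSMN), and a median width of 902 bp in CPN 1. The gene-end CSMN-only regions had a median fold of 2.34 and a median width of 173 bp in the CSMN list. The summits of the CPN libraries lay a median of 38 bp apart and within 50 bp at 1008 members. The fold was at least 4 in both libraries at 365 members and at least 6 at 66. Across the 1653 regions the log2 folds of the libraries had a Pearson correlation of 0.80 and a Spearman correlation of 0.75. This is a description across regions of the same pair of libraries, all chosen for having a peak in both. The CPN 2 fold was the higher at 1029 members, or 62.3%.

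**Figure D3:**
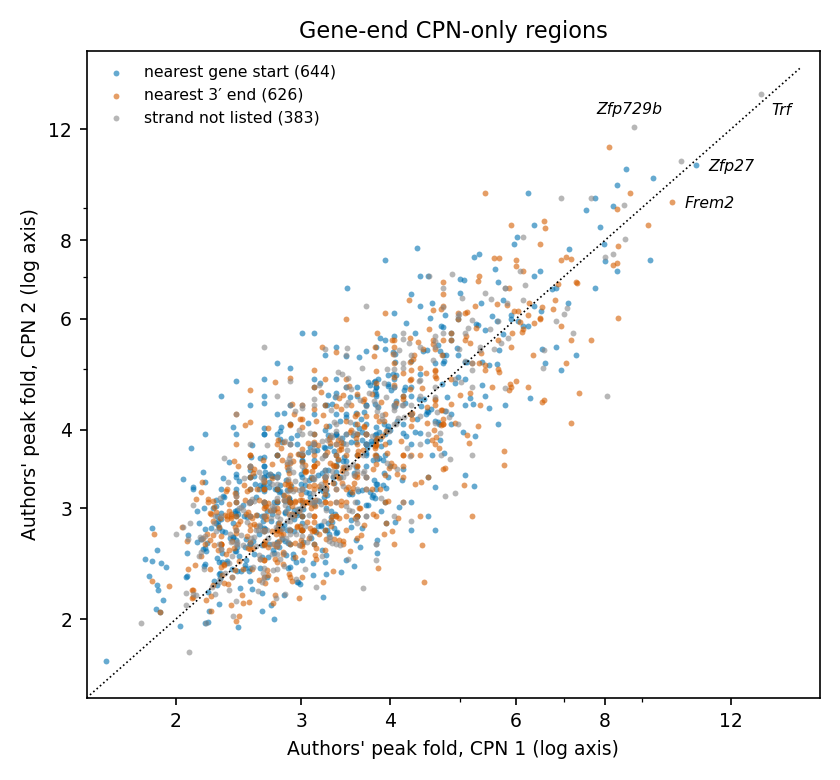
Fold of each of the 1653 gene-end CPN-only regions in CPN 1 (horizontal) and CPN 2 (vertical), on log axes, coloured by the nearest end of the gene; the dotted line marks equal folds. Most regions lie below a fold of 5 in both libraries and Trf lies farthest out, at 13.2 and 13.6.

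The members with the highest folds lay at genes of several kinds. The strongest was near Trf, which encodes transferrin, the iron carrier that oligodendrocytes make in the brain. It lay at chr9:103207850-103208154, 949 bp outside the gene, with 13.2-fold enrichment in CPN 1 and 13.6-fold in CPN 2, and the nearest CSMN peak was 5614 bp away. The region at Zfp27 (chr7:29905961-29906638) covered the start of the gene, with 10.7 and 10.6, and a CSMN peak lay 1769 bp away. The region at Slco1c1 (chr6:141523942-141524690) had its summit 116 bp inside the start, with 9.34-fold enrichment in CPN 1 and 10.04-fold in CPN 2. Slco1c1 encodes a thyroid hormone transporter of the blood-brain barrier and astrocytes. The nearest CSMN peak was 27672 bp away.

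The region at Frem2, which encodes an extracellular matrix protein, lay inside the gene near its 3′ end (chr3:53514518-53515165), with 9.92-fold enrichment in CPN 1 and 9.20-fold in CPN 2. The region at Zfp729b, a zinc finger gene (chr13:67609215-67609439), had 8.79 and 12.1, and the nearest CSMN peak was 27815 bp away. Tubb3, which encodes the neuronal tubulin used to mark neurons, had a region 648 bp beyond its 3′ end (chr8:123422451-123422874), with 8.67 and 9.52. A CSMN peak lay 1227 bp from it, and Tubb3 had 2 further regions of all 3 libraries at its ends. The region at Aunip (chr4:134510892-134511432) had its summit 7 bp inside the start, with 8.56 and 10.4, and also lay within 1 kb of Paqr7. At Scrg1, named for its response to scrapie, the region (chr8:57455847-57456078) had 8.50 and 9.11.

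Beyond the 3′ end of Pgbd5, a gene derived from a transposase and expressed in neurons, the region (chr8:124368201-124368482) had 9.20-fold enrichment in CPN 1 and 8.46-fold in CPN 2. Slc35b1, a nucleotide carrier of the endoplasmic reticulum, had 8.32 and 8.97 at 602 bp beyond its end (chr11:95391819-95392638). Sec31b, a coat component of vesicles that leave that organelle, had 8.21 and 9.06 (chr19:44544858-44544983). The last of those named for their high folds were Fam98a with 8.10 and 11.2 (chr17:75536754-75536917), Tmprss7 with 8.54 and 8.04 (chr16:45698095-45698320) and Tulp2 with 7.98 and 7.89 (chr7:45481375-45481671). Tmprss7 encodes a membrane serine protease and Tulp2 a tubby-like protein. Each of the regions named here for its fold was still a member with lists of equal length and with a −log10 q of at least 5 required in every list. The Frem2 region was not a member without CPN 1, although its CPN 2 peak had a −log10 q of 38.7. Its summit lay 988 bp from the 3′ end, near the limit of 1 kb. Without CPN 1 the rule takes the CPN 2 summit, which lay 32 bp from that of CPN 1.

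The summits farthest from a gene that still counted lay 1000 bp outside the start of Nxn, with 5.38-fold enrichment in CPN 1 and 4.72-fold in CPN 2 (chr11:76400080-76400224), and 1000 bp outside the start of Slc12a4, with 2.3 and 2.87 (chr8:105967097-105967278). Just beyond the limit were CPN-only regions at 1001 bp from an end of Vcam1, with 3.35 and 4.08 (chr3:116128588-116129026), and at 1002 bp from the 3′ end of Tmprss5, with 2.78 and 2.65 (chr9:49118469-49118644).

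Genes with a member often had other accessible sites at their ends. Of the 1673 genes with a member within 1 kb of an end, 953 (57.0%) also had a region of all 3 libraries at an end. The share was 61.3% of all 21896 protein-coding genes, but these include genes without any region, whereas a gene with a member has one by rule. Of the 15593 genes with any region at an end, 13417 had one of all 3 libraries, a larger share than among genes with a member. A CSMN-only region lay at an end of 82 (4.90%) of the 1673 genes. Of 674 genes with a member at the 3′ end, 492 (73.0%) had a region of all 3 libraries at the start, beside 58.8% of all 17491 genes of listed strand. The 58.8% likewise includes genes without any region. Of 644 genes with a member at the start, 184 (28.6%) also had a region of all 3 libraries at the start. A member there is by rule a start site without an overlapping CSMN peak, so this share cannot be set against the others. The nearest CSMN peak lay a median of 4153 bp from a member, 2318 bp from members at starts and 5254 bp from those at 3′ ends. At 255 members (15.4%) a CSMN peak lay within 500 bp. The summit was inside a gene body at 982 members (59.4%), and 129 members lay near the ends of more than 1 gene.

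A few genes carried several members. The largest number was 3, found at 6 genes, of which the first 4 by name are given. The regions at Cabp7, which encodes a calcium-binding protein, had folds of 2.84, 3.11 and 2.11 in CPN 1 and of 3.10, 2.45 and 3.24 in CPN 2. Those at Casq2, the calcium store protein of heart muscle, had 2.70, 2.71 and 2.5 in CPN 1 and 2.51, 2.98 and 4.07 in CPN 2. Those at Gpr182, a G protein-coupled receptor, had 2.34, 3.29 and 3.51 in CPN 1 and 3.61, 2.70 and 4.12 in CPN 2. Those at Myog, which encodes the muscle factor myogenin, had 2.30, 3.59 and 3.43 in CPN 1 and 2.79, 3.79 and 2.63 in CPN 2. None of these 4 genes had a region of all 3 libraries or a CSMN-only region at its ends. The folds were at or below 4.12 throughout, so these were weak peaks in both CPN libraries.

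Gene lists were read against the whole gene set, in which 1673 of 21896 protein-coding genes (7.64%) had a member and 856 (3.91%) had a CSMN-only region at an end. Of the 15593 genes with any region at an end, 10.7% had a member. For 11 of the 14 lists the Wilson interval of the share held 7.64%, and the intervals of the activity, oligodendrocyte and microglia lists lay above it. None of these 3 held under every alternative. With lists of equal length, where 951 genes of the whole set (4.34%) had a member, they gave 3 of 20, 1 of 13 and 2 of 13, with intervals that held 4.34% in the oligodendrocyte and microglia lists.

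Genes of the neuron types compared gave few members. Of 33 CPN and upper-layer genes, 4 had a member (12.1%, interval 4.82 to 27.3) and 4 had a CSMN-only region. Of 26 CSMN and subcerebral genes, 1 had a member (3.85%, interval 0.682 to 18.9) and none had a CSMN-only region. The CPN and upper-layer list therefore gave 4 genes in each direction, where the shares of all protein-coding genes were 7.64% and 3.91%. With lists of equal length 2 of its 33 genes had a member (6.06%), beside 4.34% of all protein-coding genes. Lhx2, a homeobox factor of upper-layer neurons, had a member 752 bp from its 3′ end with 4.37-fold enrichment in CPN 1 and 5.52-fold in CPN 2. The summit of that region also lay in the RefSeq promoter window of another gene, Gm13584. Nnmt, a nicotinamide methyltransferase, had 3.70 and 3.36, and Nectin1, a cell adhesion protein, had 3.49 and 2.49. Gfra2, a receptor of the GDNF family, had 3.04 and 2.40. Crim1, which is known from corticospinal neurons, had a member at its 3′ end with 4.86 and 4.40, and a region of all 3 libraries besides. The corticothalamic and subplate list gave 1 of 14 genes. That gene was Tle4, a corepressor that marks corticothalamic neurons, with 5.27 in CPN 1 and 5.79 in CPN 2 at the 3′ end.

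Of 20 genes of excitatory neurons in general, 2 had a member. Besides Tubb3 this was Neurod2, which had a pair of members at its start. The stronger of these, at chr11:98329386-98329732, had 5.6-fold enrichment in CPN 1 and 7.21-fold in CPN 2, and a CSMN peak lay 481 bp away. The weaker, at chr11:98329899-98330314, had 2.93 and 2.98. Neither was a member when peaks within 500 bp were joined, which left 1 gene of the list. The CSMN list also had a peak within 1 kb of an end of Neurod2, at 2.52-fold. Axon guidance, dendrite morphology and chromatin genes each had 1 gene with a CSMN-only region. Axon guidance gave 1 of 34 genes with a member, the netrin receptor Unc5a, with 3.72 and 3.04. Dendrite morphology gave 2 of 25, namely the adhesion molecule Dscam with 3.82 and 3.85 and the kinase gene Mapk10 with 4.39 and 3.65. Chromatin regulators gave 1 of 35, the maintenance methyltransferase Dnmt1, with 2.46 and 2.86.

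Genes that respond to neuronal activity had the highest share of the 14 lists, at 5 of 20 (25%, interval 11.2 to 46.9), beside 1 with a CSMN-only region. Nptx2, a pentraxin of synapses, had 6.57-fold enrichment in CPN 1 and 5.35-fold in CPN 2. Btg2, an antiproliferative gene, had 3.15 and 3.71, and Fosb, a subunit of AP-1, had 2.83 and 2.56. Ier2, an immediate early gene, had 2.40 and 2.34, and Egr2, a zinc finger factor, had 1.89 and 2.23. Each of the 5 regions had a CSMN peak close by, at distances of 120 bp at Egr2, 164 bp at Nptx2, 189 bp at Fosb, 335 bp at Btg2 and 428 bp at Ier2. None of the 5 was a member when peaks within 500 bp were joined. The CSMN list thus had a peak near each of these 5 sites.

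Lists of cells other than excitatory neurons had shares above 7.64%, with the endothelial list as the exception, and with intervals that were wide. The oligodendrocyte list gave 3 of 13 genes (23.1%, interval 8.18 to 50.3) and no CSMN-only region. Only Pdgfra of these was among the members with lists of equal length, or with a −log10 q of at least 5 asked of every list. The count thus rested on weak peaks at the other genes. With that q limit the count was 2 of 13, of which 1 was a gene with a member as reported. Pdgfra, the receptor of oligodendrocyte precursors, had a pair of members at its start, the stronger with 3.75 in CPN 1 and 4.71 in CPN 2. Mag, a myelin glycoprotein, had 2.89 and 3.21, and Gpr17, a receptor of immature oligodendrocytes, had 2.73 and 2.63 at the stronger of a pair. The microglia list gave 3 of 13 and no CSMN-only region, and Tyrobp was lost with lists of equal length and with that q limit. With the q limit of 5 in every list the microglia count was 4 of 13 (30.8%, interval 12.7 to 57.6). Of these, 2 were genes with a member as reported. In that setting 7.33% of all protein-coding genes had a member. C1qb had 3.35 and 3.43 across its start, Trem2, a lipid receptor, had 3.12 and 3.8, and Tyrobp, its signalling partner, had 2.43 and 4.24. At the oligodendrocyte and microglia members a CSMN peak was no closer than 871 bp, at Trem2, yet the Trem2 region was also lost when peaks within 500 bp were joined.

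The astrocyte list gave 2 of 12 genes, the pump subunit Atp1b2 with 5.04 in CPN 1 and 6.48 in CPN 2 and the glutamate transporter Slc1a3 with 3.93 and 3.39. The interneuron list gave 3 of 18, and 2 of its genes had a CSMN-only region. Pvalb, a calcium buffer of fast-spiking cells, had 3.87 and 5.6, Slc32a1, the vesicular GABA transporter, had 3.35 and 4.50, and Gad2, which makes GABA, had 3.03 and 3.45 at the stronger of a pair. Gad1, which also makes GABA, had regions in every library. The cortical progenitor list gave 3 of 15, namely Pax6 with 3.10 and 3.36, Eomes with 2.80 and 3.27 and the filament gene Vim with 2.78 and 2.63. Pax6 and Eomes encode transcription factors of radial glia and of intermediate progenitors. The endothelial and mural list gave 0 of 14 (upper limit of the interval 21.5%) and had CSMN-only regions at 2 genes. That 0 changed with the setting. With the q limit of 5 in all lists, 4 of the 14 genes had a member (28.6%, interval 11.7 to 54.6), beside 7.33% of all protein-coding genes. The count was 3 without CPN 1, 1 without CPN 2, 1 within 2 kb and 0 under the other alternatives. The part of other cell types in the sorted samples was not tested.

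Among gene families read from the symbols, the Hox genes had the highest share. Hox genes encode homeobox factors that pattern the body axis, and their clusters are known to be silenced by Polycomb complexes in the forebrain. Of 39 genes, 13 had a member (33.3%, interval 20.6 to 49.0; 7 genes, or 17.9%, with lists of equal length), 12 had a region of all 3 libraries and 4 had a CSMN-only region. The 13 genes shared 15 regions, with 5 genes in the Hoxb cluster, 4 in Hoxc, 3 in Hoxa and 1 in Hoxd. The strongest lay 478 bp from the start of Hoxb8 (chr11:96278887-96279029), with 7.75-fold enrichment in CPN 1 and 9.35-fold in CPN 2 and the nearest CSMN peak 15433 bp away. A region near Hoxb7 and Hoxb8 both (chr11:96284176-96284857) had 7.05 and 7.54. Hoxb13 had 5.67 and 5.96 at its stronger region, and Hoxc10 had 5.2 and 5.11. Genes and regions of 1 cluster are neighbours, whereas the interval treats each gene as a separate draw. The region near Hoxb7 and Hoxb8 counted for both genes. The interval does not cover this dependence.

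Other families lay closer to the whole gene set. Solute carriers had a member at 43 of 389 (11.1%, interval 8.31 to 14.6), orphan G protein-coupled receptors at 10 of 75 (13.3%) and potassium channels at 10 of 94 (10.6%). Zinc finger genes named Zfp had one at 21 of 397 (5.29%), cytosolic ribosomal proteins at 4 of 97 and histones at 1 of 77. Olfactory receptors had one at 7 of 1110 (0.631%, interval 0.306 to 1.30), while 32 had a CSMN-only region. Vomeronasal receptors had none of 355 (upper limit of the interval 1.07%) and 4 with a CSMN-only region. Of the olfactory receptors, 69 had any region at an end, so most of these loci were without a peak in every list.

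**Figure D4:**
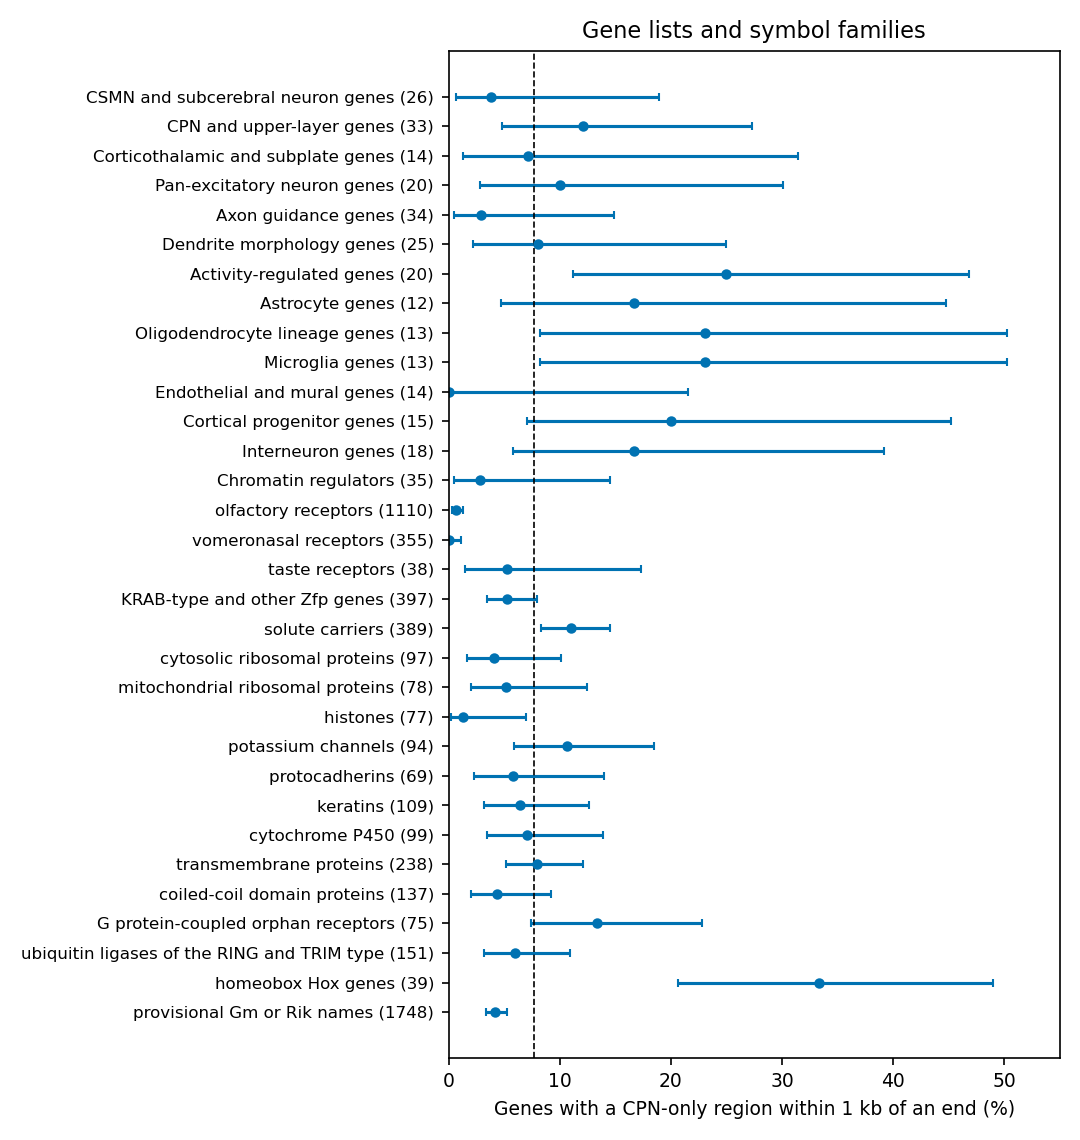
Share of the genes of the lists and symbol families shown (number of genes in brackets) with a gene-end CPN-only region, with Wilson 95% intervals; the dashed line marks 7.64%, the share over all protein-coding genes. Hox genes stand at 33.3% and activity-regulated genes at 25%, while olfactory receptors stand at 0.631%.

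The promoters under CPN-only regions were poorer in CpG than those under regions of all 3 libraries. Sequence was not used to choose the regions. Members lay over 336 distinct RefSeq promoter windows, 322 of the 644 members at starts and 9 of the 626 at 3′ ends among them. The ratio of observed to expected CpG had a median of 0.321 in those windows. It was 0.775 in the 9065 windows under gene-end regions of all 3 libraries, 0.204 in the 103 under CSMN-only regions and 0.383 in all 32817 windows. A ratio of at least 0.6, a value in common use for CpG islands, was reached by 22.0% of the CPN-only windows (interval 17.9 to 26.8) and 76.1% of the windows of all 3 libraries. Part of this went with peak strength. Under the 350 windows of all 3 libraries with a lower CPN fold of 2.61 to 3.83, the median was 0.533 and 41.4% reached 0.6 (interval 36.4 to 46.7). The 183 CPN-only windows in that fold range had a median of 0.320 and 21.9% reached 0.6 (interval 16.5 to 28.4). The GC content had a median of 56.3% in the CPN-only windows and 62.0% in the windows of all 3 libraries.

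**Figure D5:**
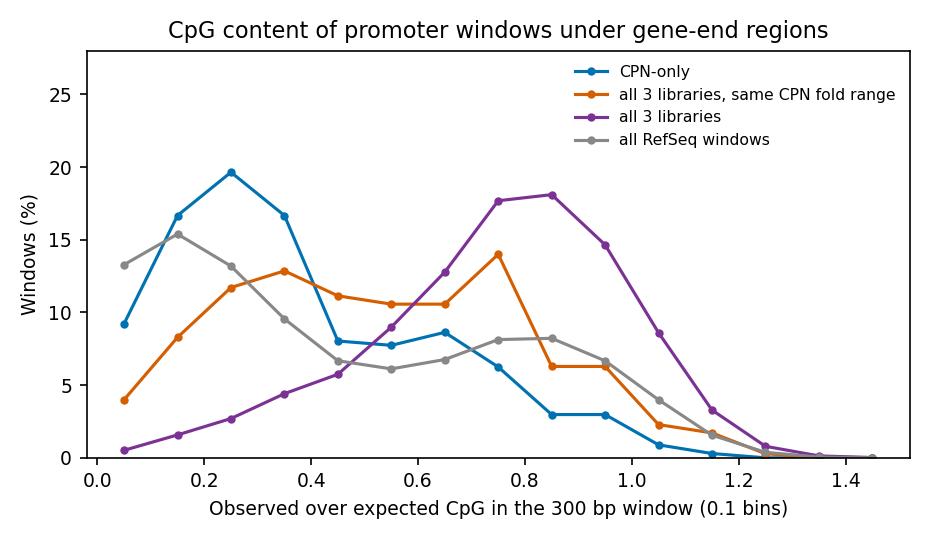
Distribution of the ratio of observed to expected CpG in RefSeq promoter windows of 300 bases (horizontal axis, bins of 0.1; values above 1.5 not drawn), as percent of the windows of each set (vertical axis). Windows under CPN-only regions have a median of 0.321, those under regions of all 3 libraries 0.775, and those of all 3 libraries in the same CPN fold range 0.533.

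Short motifs were counted on both strands of the same windows, without regard to overlap between motifs. The GC box, GGGCGG, which Sp and Klf factors bind, occurred in 37.2% of the CPN-only windows (interval 32.2 to 42.5), in 69.6% of the windows of all 3 libraries, in 56.3% of those in the same fold range (51.0 to 61.4) and in 35.6% of all windows. The ETS site, CCGGAAG, occurred in 4.17%, 17.2%, 4.86% and 8.86% of the same sets. The CCAAT box, CCAAT, occurred in 25.9%, 38.8%, 28% and 37.4%. In the 183 CPN-only windows of the same fold range the GC box occurred in 36.6% (interval 30.0 to 43.8), the ETS site in 3.28% and the CCAAT box in 26.8%. The 103 windows under CSMN-only regions had a GC box in 17.5% (interval 11.3 to 25.9), so a low share was not found in the CPN-only windows alone. The AP-1 site, TGANTCA, bound by Fos and Jun, occurred in 8.63% of the CPN-only windows, 7.14% of those of all 3 libraries in the fold range and 7.81% of all windows. The E-box CAGATG, which Neurod factors bind, occurred in 17.9%, 14.6% and 17.2%. The E-box CAGCTG occurred in 19.6%, 18.9% and 16.3%, and the TATA box, TATAAA, in 10.4%, 8% and 13.6%. Of the windows printed, that of Zfp27 held 1 CCAAT box and 1 ETS site, that of Aunip 2 GC boxes, that of Neurod2 2 GC boxes, 2 CCAAT boxes and 1 CAGATG, and that of C1qb 1 CAGATG. A match is a run of letters and not a site shown to be bound.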

How the data were processed

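ATAC-seq peak lists of 2 CPN libraries and 1 CSMN library were used as the authors deposited them. Per the submitters' processing notes the tools were MACS2 2.2.7.1, BWA 0.7.17 and bedtools 2.29.2, with mm10. The step each served, and how reads were filtered, deduplicated and shifted, is not given in the sources used here. A peak's deposited values are a fold enrichment at the summit (a ratio), a −log10 p and a −log10 q, a score, and the summit's place in bp after its start. The deposited score was checked to be 10 times the −log10 q, cut to a whole number, for over 99.9% of peaks. Peak names carry 1 library each, so lists were taken as called per library. The lowest −log10 q was 1.31, 1.31 and 1.30 in CPN 1, CPN 2 and CSMN.

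Peaks were merged by 1 bp of overlap with python 3.11.15 and pandas 2.3.3, and bedtools 2.31.1 gave the same number of regions, 204313. Gene positions came from a RefSeq table of GRCm38.p6 (mm10), and strand and sequence from the RefSeq promoter table of that build. Regions whose nearest gene had no listed strand were left out where starts and 3′ ends were compared. Classes, distances, sides and motif matches were tested on simulated data. Shares have Wilson 95% intervals for counting error only. Folds were ranked within the lists, by the lower of CPN 1 and CPN 2. Per the labels the sorts are biological replicates.

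Members, gene lists and comparisons were chosen with earlier results of these data known. All 292 entries of the 14 lists, 278 distinct genes, were matched by symbol. Genes were named by rule: the 15 members of highest lower fold without provisional names (1 is not reported here), up to 4 per list, the 2 nearest each side of the 1 kb limit, 4 genes with the most members, and up to 8 promoter sequences. Gene families were read from symbols, and family members named in the text were chosen by the same rank after their values were seen. The miRNA genes, Paqr7, Gm13584 and the checked markers stand beside that rule. Alternatives were lists of equal length, a stricter −log10 q, other overlaps and distances, all genes of the table, and leaving out each CPN library.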

Additional observations from a re-analysis of the deposited data

How the results depend on the processing

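The share of regions without a CSMN peak was lower at gene starts than at 3′ ends under each alternative tried. The number of members, 1653 as reported, was 898 with lists of equal length, 926 with a −log10 q limit of 5 asked of the CPN lists only, 967 with a distance of 500 bp, 2972 with 2 kb, 3595 with all genes of the table, and 4017 without CPN 1 and 2839 without CPN 2. The first of these values, 898, were all among the 1653. CPN-only regions were 8.58% of gene-end regions as reported. The share was 5.45% with lists of equal length, 10.1% with the limit of 5 in all lists, 5.59% with that limit in the CPN lists only and 8.07% with peaks within 500 bp joined. It was 6.73% with a distance of 500 bp, 11.0% with 2 kb, 12.1% with all genes, and 21.2% without CPN 1 and 16.3% without CPN 2. The share of members nearest a start, 50.7%, was 56.7% with the limit of 5 in all lists, 43.8% with joined peaks, 57.0% within 500 bp, 46.4% within 2 kb and 54.5% with all genes, and 50.2% without CPN 1 and 48.5% without CPN 2. Of regions in both CPN lists, the share at starts without CSMN, 6.31%, was 3.69% with lists of equal length, 6.85% and 3.76% with the q limit of 5 in all lists and in the CPN lists only, 4.79% with joined peaks, 4.66% within 500 bp, 8.86% within 2 kb and 10.8% with all genes. It was 13.6% without CPN 1 and 9.93% without CPN 2. At 3′ ends, the 41.1% was 29.4% with lists of equal length, 43.6% and 29.9% with the q limit of 5 in all lists and in the CPN lists only, and 60.7% without CPN 1 and 53.9% without CPN 2. Leaving out a CPN library asks for a peak in 1 list only, which adds regions by construction, and shorter CPN lists remove them. Other causes were not tested. Alternatives for the gene lists and for the odd library were added after the data were seen. Leaving out the CSMN library gives no value, because the regions are defined against it. Of the 35 list members, 24 were members with lists of equal length and 25 with joined peaks. No paired analysis was possible because CSMN has 1 library and shares only a number with CPN 1. Depth is unknown, so a missing peak cannot be set against reads.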

Other observations

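MicroRNA genes also lay beside some of these regions. RefSeq hairpins lay within 1 kb of 8 of the 1653 members, 9 hairpins in all, and 5 members overlapped 6 of them. Hairpins near other gene-end regions were not counted, so whether members have more or fewer of them is not known. The region at Copz2 (chr11:96849644-96850730) overlapped Mir152, with 5.67-fold enrichment in CPN 1 and 6.87-fold in CPN 2. The region at Cercam (chr2:29845648-29846518) overlapped Mir219a-2 and Mir219b, which lie on opposite strands, with 2.92-fold enrichment in CPN 1 and 2.5-fold in CPN 2. The miR-219 family is known for its role in the maturation of oligodendrocytes. The Zfp27 region overlapped Mir7668. These were chosen after their values were seen, and a peak over a hairpin says nothing of its transcription. Mature products of Mir152 and Mir219a-2 are given because their seeds differ, with the seed, bases 2 to 8, in capitals.
mmu-miR-152-3p: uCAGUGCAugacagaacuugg
mmu-miR-219a-5p: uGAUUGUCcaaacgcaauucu
Both sequences are from RefSeq, GRCm38.p6.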
